A study of Rattus norvegicus with 24 samples.

Results

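The genes described here are 32 transcripts of the liver's blood-vessel lining: markers of sinusoidal endothelium, receptors and junction proteins found on endothelium at large, and 3 ligands that endothelial cells send to hepatocytes. A gene entered when a probe set carried its symbol and no other, and the probe set with the highest mean over 24 arrays stood for it. This gave 30 of the 32 genes, all of which passed a filter on low values (4.28 on the log2 scale in at least 4 arrays), among 19686 tested genes of 22093 with such a probe set. Ptprb was not analysed here, and Egfl7 lies on a probe set annotated jointly with a microRNA and is given only as a value below.

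The livers came from male RccHan Wistar rats bought at 7 to 8 weeks of age. Metformin, a biguanide that lowers blood glucose, was given by gavage at 800 mg/kg for 1, 3 or 14 consecutive days, and each day had its own controls that received vehicle (ethanol, Kolliphor HS 15 and tap water). All rats therefore carried the solvent and the gavage. Of 5 animals per group in the design text, 4 arrays per group were analysed, each made from whole-liver RNA of 1 rat. Levels are log2 of the deposited array intensity. In whole liver, fewer endothelial cells and less RNA per endothelial cell cannot be told apart.

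Liver sinusoidal endothelium is a fenestrated lining without a continuous basement membrane. It takes up waste macromolecules through scavenger receptors such as the stabilins, and near the central vein it secretes Wnt2 and Rspo3, which maintain the Wnt-dependent zone of hepatocytes. It also secretes Bmp2 and Bmp6, which set hepatocyte hepcidin, the hormone that limits iron release.

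The tissue label was checked first. Albumin stood at 19.57 or more in every array and transthyretin (Ttr) at 19.33 or more. Of the endothelial markers, Stab2 stood at 8.67 or more, Lyve1 at 11.57 or more and Clec4g at 8.63 or more, all above the filter. The mean levels of the 30 genes lay between percentile 49.5 of all probe sets for Mmrn1 and percentile 95.05 for Fcgr2b. Array medians ranged over 6.14 to 6.25 and arrays of 1 group correlated at 0.989 or more. The quantile normalization within RMA draws medians together, and correlation over all genes mostly follows how genes differ in level. Neither value can therefore show whether an array stood apart.

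The promoters of 4 genes that the results turn on are shown, with a motif of ETS-family factors marked. These factors, among them the member Erg, are known regulators of endothelial genes. Whether the motif has any link to the differences with metformin was not tested. Each runs from 250 bases before to 50 bases after the start of the gene in the RefSeq annotation of GRCr8, written 5′ to 3′ on the gene's strand. Capitals mark AGGAAG or, on the other strand, CTTCCT, the ETS core searched. The Wnt2 promoter (chr4:47340235-47340534, minus strand) held 0 matches and that of Mmrn1 (chr4:91233166-91233465, plus strand) held 1. The Eng promoter (chr3:36332029-36332328, plus strand) held 2, and that of Clec4g (chr12:6582864-6583163, minus strand) held 4, of which 3 overlap in 1 run.
Wnt2: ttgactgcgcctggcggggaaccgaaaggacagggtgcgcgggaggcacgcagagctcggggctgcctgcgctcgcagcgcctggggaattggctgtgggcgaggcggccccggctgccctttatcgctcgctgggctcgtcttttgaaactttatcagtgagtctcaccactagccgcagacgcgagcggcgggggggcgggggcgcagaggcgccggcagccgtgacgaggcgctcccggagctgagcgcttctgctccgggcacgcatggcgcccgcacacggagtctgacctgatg
Mmrn1: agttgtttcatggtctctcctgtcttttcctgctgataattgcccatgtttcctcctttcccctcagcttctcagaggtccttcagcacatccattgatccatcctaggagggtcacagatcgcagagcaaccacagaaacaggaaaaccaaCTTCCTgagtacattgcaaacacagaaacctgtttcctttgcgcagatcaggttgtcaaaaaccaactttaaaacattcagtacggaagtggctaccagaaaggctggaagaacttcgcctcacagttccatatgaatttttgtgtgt
Eng: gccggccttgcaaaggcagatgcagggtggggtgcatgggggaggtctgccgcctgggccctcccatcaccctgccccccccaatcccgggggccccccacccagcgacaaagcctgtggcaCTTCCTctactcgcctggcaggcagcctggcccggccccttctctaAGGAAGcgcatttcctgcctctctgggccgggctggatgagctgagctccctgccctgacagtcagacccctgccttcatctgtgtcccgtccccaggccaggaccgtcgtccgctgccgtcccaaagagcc
Clec4g: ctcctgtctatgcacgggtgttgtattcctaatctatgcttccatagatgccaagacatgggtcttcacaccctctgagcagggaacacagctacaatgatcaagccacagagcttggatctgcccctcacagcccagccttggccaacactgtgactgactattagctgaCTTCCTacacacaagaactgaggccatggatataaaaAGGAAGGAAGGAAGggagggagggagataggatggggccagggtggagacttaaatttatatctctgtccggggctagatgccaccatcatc

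Of the 30 tested genes, 21 had a promoter in the table. AGGAAG on either strand stood in 15 of these 21 (71.4%), against 34.3% of all 27457 promoters of that length. AGATAA on either strand, a GATA-type motif whose matches may overlap those of the first, stood in 1 of 21 (4.76%), against 11.3% of all. Median GC content was 55.0% in the members, with a range of 40.0 to 75.0%, and 52.3% in all promoters. These are matches of letters in a window, not binding sites.

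The first question was whether metformin changed the endothelial transcripts on each day. No member passed the test on any day: limma with Benjamini-Hochberg adjustment over all 19686 genes called 0 of 30 in each daily comparison, and 0.0152%, 0.254% and 3.29% of all genes on days 1, 3 and 14. The signs of the differences were uneven among the members. On day 1 the difference was positive in 25 of 30 members and in 55.6% of all genes, with a median of 0.08 and a range of -0.12 to 0.42. On day 3 it was negative in 23 of 30 members and 57.3% of all genes, with a median of -0.06 (-0.49 to 0.21). On day 14 it was negative in 27 of 30 members and 47.3% of all genes, with a median of -0.19 (-0.61 to 0.09), while the median of all genes was 0.01. The members share rats, so these counts are not counts of independent events.

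The sign ran positive on day 1 and negative on days 3 and 14 in 18 of the 30 members, an order that 18.9% of all tested genes had. Positive differences on days 1 and 3 and a negative one on day 14 were found in 6 (Fcgr2b, Pecam1, Mmrn1, Erg, Rspo3 and Wnt2), against 9.01% of all genes. Dnase1l3, Kdr and Bmp2 were negative on all 3 days. Sox17, Sox18 and Emcn each had another order, and 0 of 30 were positive throughout, which 14.9% of all genes were.

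**Figure D1:**
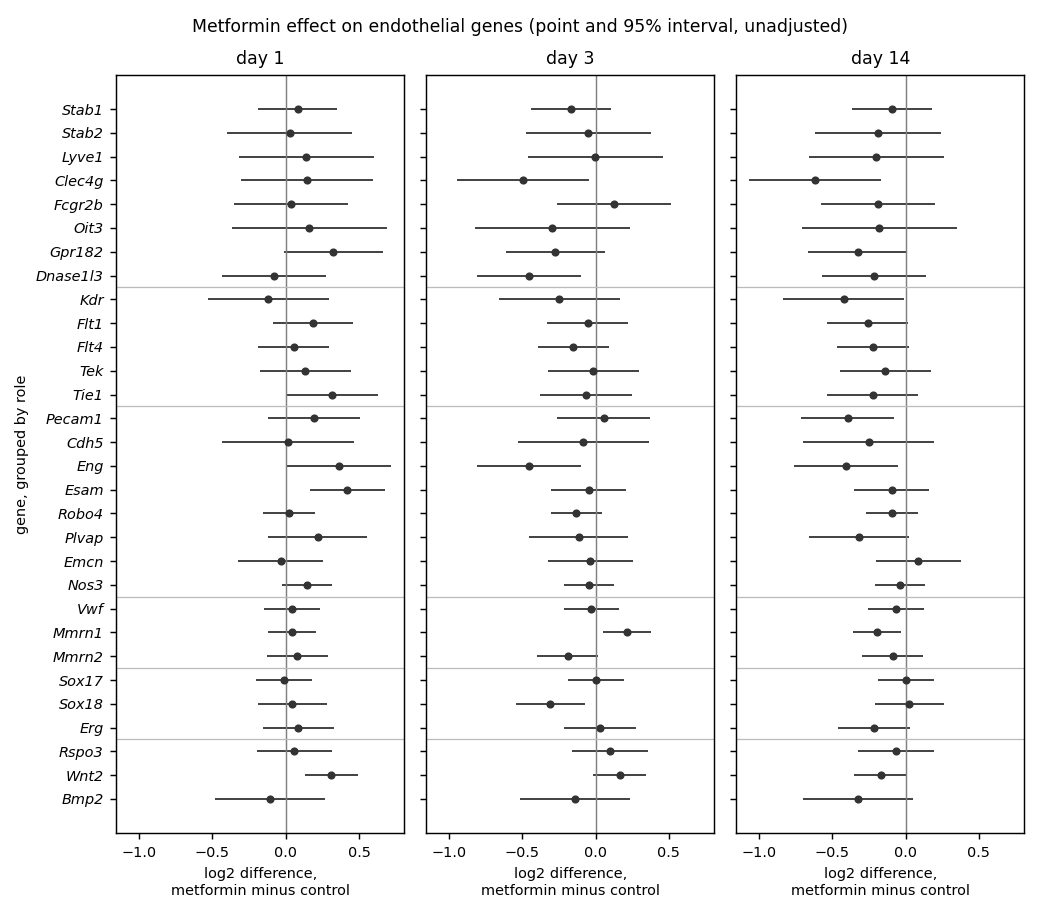
Log2 difference, metformin minus control (horizontal axis), for the 30 endothelial genes (rows, grouped by role) on days 1, 3 and 14. Points are the model's estimates from 4 rats per group and bars their unadjusted 95% intervals. Of the points, 25 lie right of 0 on day 1, and 27 lie left of it on day 14.

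At an unadjusted p under 0.05, 4 members were higher and 0 lower with metformin on day 1 (5.75% and 2.47% of all genes), 1 higher and 4 lower on day 3 (7.39% and 6.26%), and 0 higher and 5 lower on day 14 (9.49% and 7.35%). Members whose 4 metformin rats all lay on 1 side of the 4 controls numbered 2 higher and 0 lower on day 1 (3.46% and 1.72% of all genes), 1 higher and 2 lower on day 3 (3.68% and 3.41%), and 0 higher and 2 lower on day 14 (5.07% and 3.34%). With 30 members these are counts of a few genes, and they are described below with their rats.

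Among the 8 scavenger and surface genes of sinusoidal endothelium, the difference was positive in 7 on day 1 (median 0.11), negative in 7 on day 3 (median -0.22) and negative in all 8 on day 14 (median -0.19). Stab2, a receptor that clears hyaluronan from blood, measured 9.73, 9.62, 9.60 and 9.44 in metformin rats and 9.53, 9.64, 9.72 and 9.37 in controls on day 1. On day 14 it measured 8.91, 9.74, 9.10 and 8.67 in metformin rats and 9.73, 8.74, 9.42 and 9.28 in controls. The groups overlapped on both days, and on day 14 each held rats about 1 log2 unit apart. Its differences were 0.03 ± 0.21 on day 1, -0.05 ± 0.21 on day 3 and -0.19 ± 0.21 on day 14 (SE, n = 4 per group), with adjusted p of 0.992, 0.928 and 0.731.

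Lyve1, the hyaluronan receptor shared by lymphatic and sinusoidal endothelium, averaged 11.98 ± 0.45 in metformin rats and 12.18 ± 0.49 in controls on day 14 (SD, n = 4 each), less apart than the rats within a group. Its differences on days 1 and 3 were 0.14 ± 0.22 and -0.003 ± 0.22. Clec4g, a C-type lectin also called LSECtin, had the most negative difference of the set on days 3 and 14. On day 3 it measured 9.37, 9.53, 8.91 and 8.63 with metformin, against 9.42, 9.69, 9.61 and 9.71 in controls. On day 14 it measured 8.73, 9.48, 9.31 and 8.81 with metformin, against 10.10, 9.17, 10.10 and 9.42 in controls. On day 3 the lowest control lay below 1 of the 4 metformin rats, and on day 14 the groups overlapped further. The differences were -0.49 ± 0.22 (adjusted p = 0.32) and -0.61 ± 0.22 (adjusted p = 0.13), with 95% intervals of -0.94 to -0.05 and -1.06 to -0.17. On day 1 Clec4g differed by 0.15 ± 0.22, and its mean effect over the 3 days was -0.32 ± 0.12 (adjusted p = 0.186).

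Gpr182, an atypical chemokine receptor of sinusoidal endothelium, showed the tightest groups of day 1. It measured 9.33, 9.33, 9.31 and 9.37 in metformin rats and 9.02, 9.01, 8.96 and 9.03 in controls, without overlap. The difference was 0.33 ± 0.16, with an adjusted p of 0.636. The model uses 1 spread per gene over all groups, and the SD of Gpr182 was 0.453 in metformin rats of day 14 and 0.0258 in those of day 1. On day 14 those rats measured 8.39, 9.20, 8.59 and 8.14, against 9.27, 8.63, 8.73 and 8.98 in controls, a difference of -0.33 ± 0.16 (adjusted p = 0.321). Dnase1l3, a secreted nuclease, measured 11.31, 11.03, 10.98 and 10.94 with metformin on day 3, against 11.28, 11.54, 11.78 and 11.48 in controls. Only the first of the 4 metformin rats reached the control range, and the difference was -0.45 ± 0.17 (adjusted p = 0.25). A second probe set for Dnase1l3 gave -0.38 on day 3. Fcgr2b, the inhibitory Fc receptor through which sinusoidal endothelium clears immune complexes, differed by 0.04, 0.12 and -0.19 on days 1, 3 and 14. Stab1 and Oit3 stayed within 0.17 and 0.29 of their controls on each day.

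**Figure D2:**
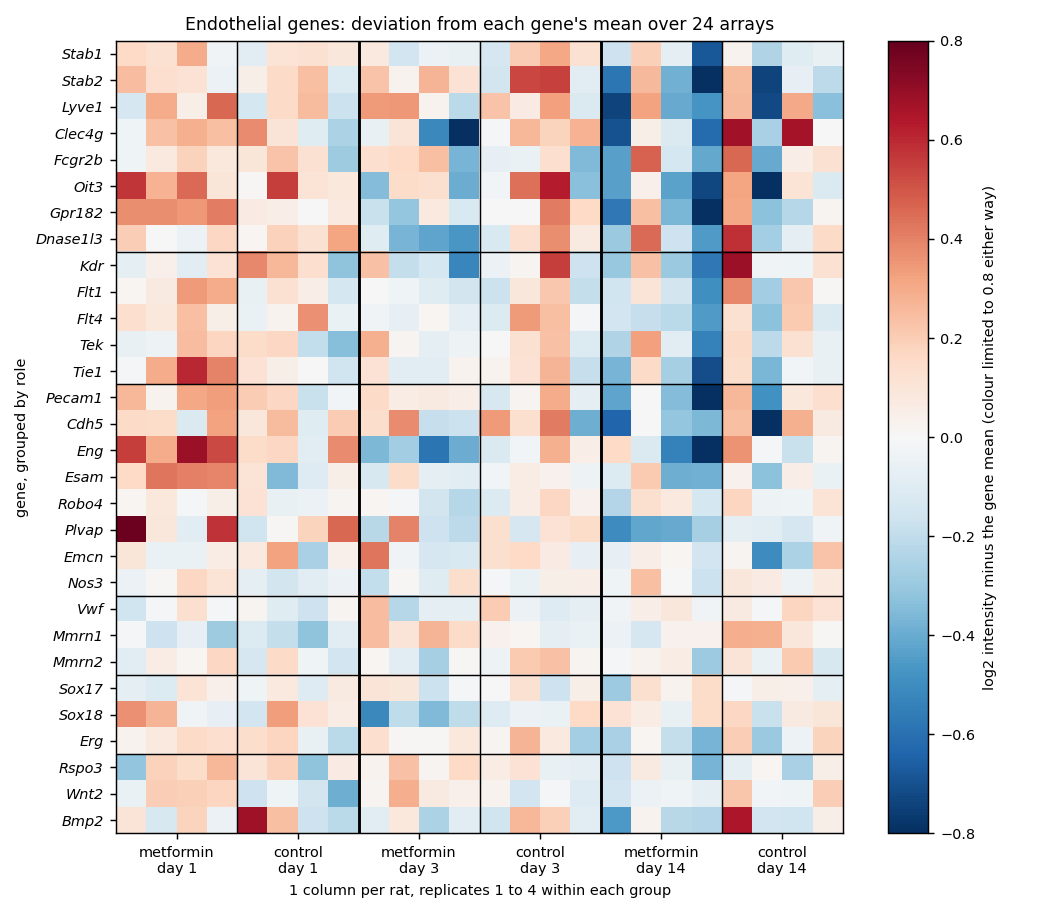
Deviation of log2 intensity from each gene's mean over 24 arrays, with 1 row per endothelial gene and 1 column per rat, metformin left of control within each day. Colour gives log2 units. On day 14 whole columns are shaded alike across genes: metformin replicate 4 and control replicate 2 are mostly blue, and control replicate 1 mostly red.

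Of the receptors for vascular endothelial growth factors and angiopoietins, 4 of 5 had a positive difference on day 1 (median 0.14), 0 of 5 on day 3 (median -0.06) and 0 of 5 on day 14 (median -0.22). Kdr, the main signalling receptor for VEGF-A, measured 12.18, 12.72, 12.19 and 11.91 in metformin rats on day 14 and 13.17, 12.46, 12.45 and 12.61 in controls. In 3 of the 4 metformin rats it lay below every control, and the difference was -0.42 ± 0.20 (adjusted p = 0.284). Tie1, the orphan partner of the angiopoietin receptor Tek, measured 7.48, 7.79, 8.09 and 7.88 with metformin on day 1, against 7.61, 7.53, 7.49 and 7.33 in controls. It differed by 0.32 ± 0.15 on day 1 (adjusted p = 0.597), with 3 metformin rats above all controls, and by -0.22 ± 0.15 on day 14. Tek itself differed by 0.14 and -0.14 on those days. Flt1, a decoy-like VEGF receptor, differed by -0.26 ± 0.13 on day 14, and its second probe set by -0.05. Flt4, the receptor for VEGF-C, differed by -0.22 ± 0.12.

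The 8 measured junction, surface and signalling genes had 7 positive differences on day 1 (median 0.17), 7 negative ones on day 3 (median -0.06) and 7 negative ones on day 14 (median -0.17). Esam, an adhesion molecule of endothelial tight junctions, measured 6.35, 6.62, 6.60 and 6.59 with metformin on day 1, against 6.30, 5.84, 6.09 and 6.24 in controls. All 4 metformin rats lay above all controls, and the difference was 0.42 ± 0.12 or 1.34-fold (adjusted p = 0.267). It differed by -0.05 on day 3 and -0.09 on day 14. Plvap, which forms the diaphragms of endothelial fenestrae and caveolae, measured 5.47, 5.55, 5.57 and 5.70 with metformin on day 14, against 5.90, 5.88, 5.84 and 5.94 in controls. These groups were separate and each narrow, yet the difference of -0.32 ± 0.16 had an adjusted p of 0.34.

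Eng, the endoglin coreceptor for BMP9 whose promoter is shown above, had the largest difference among the 30 genes when the effect of day 1 was subtracted from that of day 3 (-0.82) or of day 14 (-0.77), and differed by 0.05 between days 14 and 3. On day 1 it measured 11.22, 10.96, 11.36 and 11.20 in metformin rats and 10.81, 10.83, 10.58 and 11.04 in controls. On day 3 it measured 10.30, 10.39, 10.08 and 10.27 in metformin rats and 10.55, 10.64, 10.95 and 10.72 in controls. On day 14 it measured 10.82, 10.55, 10.12 and 9.73 in metformin rats and 11.02, 10.65, 10.48 and 10.69 in controls. Metformin rats were above the controls in 3 of 4 cases on day 1, below all of them on day 3, and spread over more than 1 log2 unit on day 14. The differences were 0.37 ± 0.17 (adjusted p = 0.594), -0.45 ± 0.17 (adjusted p = 0.249) and -0.41 ± 0.17 (adjusted p = 0.216).

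Pecam1, the CD31 adhesion molecule, measured 8.65, 9.07, 8.72 and 8.28 with metformin on day 14, against 9.34, 8.59, 9.16 and 9.21 in controls. Every metformin rat lay below 3 of the 4 controls, while control replicate 2 lay among the metformin rats. The difference was -0.39 ± 0.15 (adjusted p = 0.176), against 0.19 on day 1. Cdh5, the VE-cadherin of endothelial junctions, differed by -0.25 ± 0.22 on day 14, and Nos3, the endothelial nitric oxide synthase, by -0.04 ± 0.08. Emcn, an endothelial sialomucin, was the exception of day 14 in this group at 0.09 ± 0.14. Robo4 differed by -0.13 or less in size on each day. The probe set that Egfl7 shares with a microRNA differed by -0.12, -0.28 and -0.02 on days 1, 3 and 14.

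The 3 haemostasis and multimerin genes differed by small amounts, and Mmrn1 had the smallest error of the 30 genes. Vwf, the platelet-tethering factor made by endothelium, stayed within 0.07 of controls on every day. Mmrn1, a multimerin of platelets and lymphatic endothelium, measured 5.12, 4.98, 5.15 and 5.03 with metformin on day 3, against 4.91, 4.89, 4.80 and 4.82 in controls, with no overlap. On day 14 it measured 4.83, 4.75, 4.91 and 4.91 with metformin, against 5.17, 5.16, 4.97 and 4.89 in controls, where 1 control lay among the metformin rats. The differences were 0.21 ± 0.08 (adjusted p = 0.243) and -0.20 ± 0.08 (adjusted p = 0.188). Mmrn2, an endothelial matrix protein, differed by -0.19 ± 0.10 on day 3.

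Among the transcription factors, Erg, which maintains endothelial identity, differed by 0.09, 0.03 and -0.21 on days 1, 3 and 14 (adjusted p of 0.93, 0.917 and 0.388). Sox17 stayed within 0.01 of its controls on each day, with 95% intervals no wider than -0.20 to 0.20. Sox18, a factor of vascular and lymphatic development, measured 4.95, 5.27, 5.12 and 5.26 with metformin on day 3, against 5.37, 5.42, 5.42 and 5.63 in controls. All metformin rats lay below all controls on that day, and the difference was -0.31 ± 0.11 (adjusted p = 0.239). On days 1 and 14 Sox18 differed by 0.05 and 0.03.

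Of the ligands, Wnt2 had the smallest p among the 30 genes on day 1. It measured 6.10, 6.35, 6.34 and 6.32 with metformin, against 5.99, 6.11, 6.01 and 5.76 in controls on day 1. On day 3 the values were 6.172, 6.440, 6.223 and 6.192 with metformin, against 6.178, 5.997, 6.142 and 6.050 in controls. On day 14 they were 5.998, 6.103, 6.114 and 6.081 with metformin, against 6.370, 6.132, 6.115 and 6.350 in controls. Metformin rats were mostly the higher ones on days 1 and 3, and on day 14 they were the lower ones, with the highest metformin rat just under the lowest control. The differences were 0.31 ± 0.09 (adjusted p = 0.257), 0.16 ± 0.09 (adjusted p = 0.407) and -0.17 ± 0.09 (adjusted p = 0.343). Rspo3, the R-spondin that amplifies Wnt signals, differed by 0.06, 0.10 and -0.06. Bmp2 differed by -0.11, -0.14 and -0.32 ± 0.18 (adjusted p = 0.398 on day 14).

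**Figure D3:**
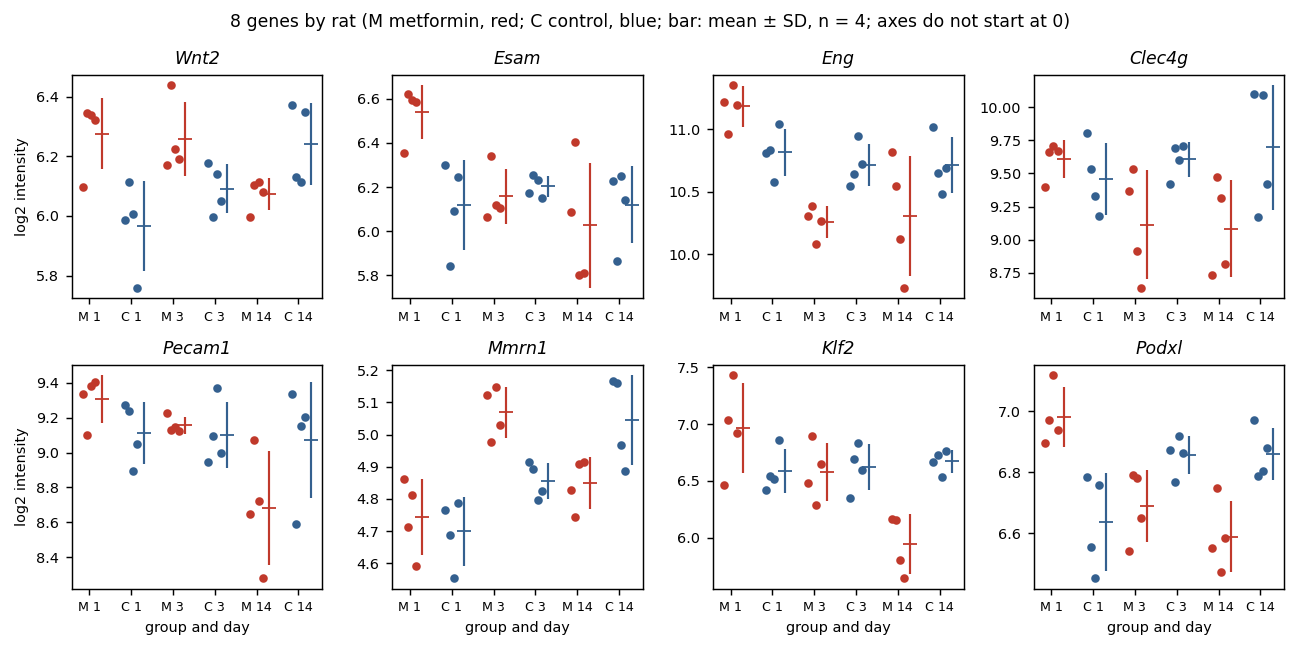
Log2 intensity by rat for Wnt2, Esam, Eng, Clec4g, Pecam1, Mmrn1, Klf2 and Podxl, with 4 points per group and the mean ± SD beside them. Metformin groups (M, red) stand left of controls (C, blue) for days 1, 3 and 14, and axes do not start at 0. Wnt2 and Eng with metformin lie mostly above controls on day 1 and mostly below on day 14, and all metformin values of Klf2 on day 14 lie below all controls.

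The second question was whether the effect of metformin differed between days. The effect on day 14 minus that on day 1 was negative in 28 of 30 members, with a median of -0.27, against 0.00147 over all genes. The test of this difference called 1 member, Wnt2, and 1.66% of all genes. At an unadjusted p under 0.05, 0 members were positive and 10 negative, against 6.07% and 8.02% of all genes. For Wnt2 it was -0.48 ± 0.12 with an adjusted p of 0.049999, at the edge of the threshold. It passed in 5 of 10 other settings (adjusted p of 0.0392 to 0.268) and in 3 of 16 fits without 1 rat (adjusted p of 0.0315 to 0.116). Those 3 fits left out metformin replicate 1 of day 1 (-0.54), control replicate 2 of day 1 (-0.53) or control replicate 3 of day 14 (-0.52). Eng followed at -0.77 ± 0.24 (adjusted p = 0.11), Esam at -0.52 ± 0.17 (adjusted p = 0.145), Gpr182 at -0.65 ± 0.23 (adjusted p = 0.171) and Pecam1 at -0.59 ± 0.22 (adjusted p = 0.189), none past the threshold over all rats. Without metformin replicate 1 of day 14 Eng passed (-0.94, adjusted p = 0.0215), and without metformin replicate 2 of day 14 Gpr182 (-0.86, adjusted p = 0.0248) and Esam (-0.64, adjusted p = 0.0424) did. How large a share of all genes passed in those fits was not counted.

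Between days 3 and 1 the effect called 0 of 30 members and 0% of all genes, and 5 members had an unadjusted p under 0.05 (10.7% of all genes), all with a negative difference. Eng came first at -0.82 ± 0.24 (adjusted p = 0.239). Between days 14 and 3 it called 0 members and 0.00508% of all genes, and 3 members had an unadjusted p under 0.05 (7.54% of all genes). These were Mmrn1 at -0.41 ± 0.11, Wnt2 at -0.33 ± 0.12 and Sox18 at 0.33 ± 0.16. The mean effect over the 3 days called 0 members and 3.23% of all genes, and 3 members had an unadjusted p under 0.05 (15.9% of all genes): Clec4g, Dnase1l3 at -0.25 ± 0.10 (adjusted p = 0.195) and Kdr at -0.26 ± 0.11 (adjusted p = 0.254). Wnt2 had a mean effect of 0.10 (adjusted p = 0.326). These contrasts share arrays with the daily ones.

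Control rats show how the transcripts varied between the days without metformin. They were different rats on each day, and days of vehicle dosing, age and day of sampling cannot be told apart. Mmrn1 rose in controls of day 14 over those of day 1, with 5.17, 5.16, 4.97 and 4.89 on day 14, against 4.77, 4.69, 4.55 and 4.79 on day 1, without overlap. The difference was 0.35 ± 0.08 or 1.27-fold (adjusted p = 0.0191), the single call among the 30 members in a comparison that called 1.82% of all genes, and 2 members had an unadjusted p under 0.05 (10.1% of all genes). The call held in 5 of 8 fits without 1 control (adjusted p of 0.0119 to 0.0918) and was lost without replicate 3 of day 1 (0.30), replicate 1 of day 14 (0.31) or replicate 2 of day 14 (0.31). It was also lost in 4 of 10 other settings. Wnt2 was the other of the pair, at 0.28 ± 0.09 (adjusted p = 0.146), so its controls stood higher on day 14 than on day 1. Controls of day 3 over day 1 gave 0 calls and 0 members under an unadjusted p of 0.05 (0% and 4.71% of all genes). Controls of day 14 over day 3 gave 0 calls (0.889% of all genes) and 1 member under an unadjusted p of 0.05 (9.87%).

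Within day 14 the endothelial genes varied together from rat to rat. The median deviation of the 30 genes from their means was -0.25, 0.07, -0.16 and -0.40 in the 4 metformin rats and 0.21, -0.25, 0.01 and 0.02 in the 4 controls. Metformin replicate 2 was the highest of its group in 21 of 30 members and in 24.3% of all genes, and metformin replicate 4 the lowest in 17 (29.8% of all genes). Control replicate 1 was the highest of its group in 20 (25.0% of all genes) and control replicate 2 the lowest in 20 (22.3% of all genes). The SD of this median between rats was 0.194 in metformin rats and 0.189 in controls of day 14, against 0.063 and 0.095 on day 1 and 0.060 and 0.122 on day 3. Leaving out 1 rat moved the median difference of day 14 to -0.30 without metformin replicate 2, -0.10 without metformin replicate 4, -0.08 without control replicate 1 and -0.32 without control replicate 2, all of the same sign. Among the 8 fits without 1 rat single calls appeared: Eng without metformin replicate 1 (-0.58, adjusted p = 0.0393), Gpr182 without metformin replicate 2 (-0.53, adjusted p = 0.0465) and Pecam1 without control replicate 2 (-0.55, adjusted p = 0.0415). The share of all genes called in these fits was not counted.

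Markers of other liver cells are given beside these values. Of 20 Kupffer cell and macrophage markers, 17 had a positive difference on day 1 (median 0.14), 19 a negative one on day 3 (median -0.41) and 19 a negative one on day 14 (median -0.20). Of 20 stellate cell and fibroblast markers, 12 were positive on day 1 (median 0.08), 17 negative on day 3 (median -0.10) and 13 negative on day 14 (median -0.15). Of 14 hepatocyte markers, 11 were negative on day 14 (median -0.09). No marker of these 3 lists passed the limma test on any day. At an unadjusted p under 0.05 were 0, 5 and 1 Kupffer markers, 2, 3 and 2 stellate markers and 0, 0 and 1 hepatocyte markers on days 1, 3 and 14, against 8.22%, 13.6% and 16.8% of all genes in either direction.

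The control rat with the lowest endothelial genes on day 14, replicate 2, was also the lowest of its group in 18 of 20 Kupffer markers, with Clec4f at 11.44, against 12.73, 12.77 and 12.76 in the other controls, and its stellate markers had a median deviation of -0.33. The endothelial and Kupffer lists ran together in some rats and not in others. On day 3 control replicate 4 was lowest in 12 of 30 members and in 14 of 20 Kupffer markers. On day 14 metformin replicate 2, highest in 21 of 30 members, was highest in 9 of 20 Kupffer markers, the most of its group. Metformin replicate 4, lowest in 17 of 30 members, was lowest in 4 of 20 Kupffer markers, and control replicate 1, highest in 20 of 30 members, was highest in 6 of 20. In metformin replicate 4 the stellate and hepatocyte markers were low as well. Their median deviations were -0.36 and -0.13, each the lowest of its group (ranges of -0.36 to -0.23 and -0.13 to 0.01). Hepatocyte markers had a median deviation of 0.04 in control replicate 2 and 0.03 in the other 3 controls. Of the 14, 7 had means within 1 log2 unit of the highest value on the arrays (19.91), where little room is left to show a rise. A fall could still be seen there, as albumin stood at 19.57 in metformin replicate 4, against 19.82, 19.85 and 19.85 in its group. Summed intensity on day 14 ranged over 20973 to 36278 in metformin rats and 23364 to 40365 in controls for the 30 endothelial genes. For Kupffer markers it ranged over 32110 to 40792 in metformin rats and 31830 to 51571 in controls, and for stellate markers over 9873 to 13848 in metformin rats and 9256 to 17694 in controls. Deposited intensities are above 0 by construction, so they cannot show whether a cell type was absent. The part of cell composition in the endothelial values was not tested.

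**Figure D4:**
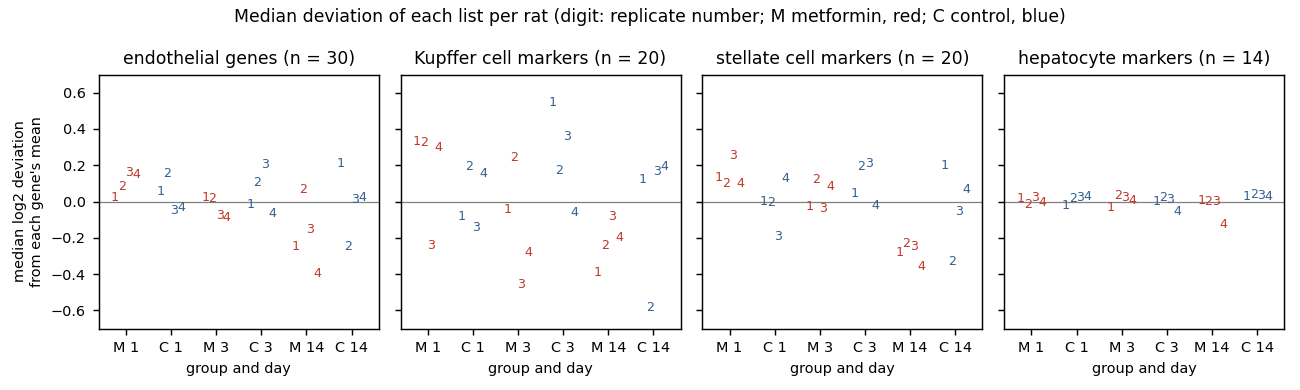
Median log2 deviation from each gene's mean (vertical axis) in each rat, for the 30 endothelial genes and for markers of Kupffer cells (20), stellate cells (20) and hepatocytes (14). Digits are replicate numbers, metformin (M, red) left of control (C, blue). Control replicate 2 of day 14 lies low in the endothelial (-0.25), Kupffer and stellate (-0.33) panels and at 0.04 in the hepatocyte panel, whose markers mostly lie near the top of the scale (9 of 14 within 2 log2 units).

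The remaining genes of these pathways were read from 8 lists. In the list of 18 endothelial transcription factors, Klf2, the factor that endothelium raises under laminar flow, fell with metformin on day 14. It measured 6.17, 6.16, 5.80 and 5.64 in metformin rats and 6.67, 6.73, 6.53 and 6.76 in controls, without overlap, and metformin replicate 2, whose endothelial genes were high, lay with its group. The difference was -0.73 ± 0.17, or 1.66-fold lower (adjusted p = 0.021). The call held in 8 of 10 other settings and in 4 of 8 fits without 1 rat (adjusted p of 0.0136 to 0.0734), with differences of -0.80 to -0.63. On day 1 Klf2 differed by 0.38 ± 0.17, and its effect on day 14 minus that on day 1 was -1.11 ± 0.24 (adjusted p = 0.0226). Nr2f2, which specifies venous endothelium, differed by 0.56 ± 0.14 on day 1 (adjusted p = 0.234) and -0.27 ± 0.14 on day 14, and the difference between these effects, -0.83 ± 0.20, passed (adjusted p = 0.0418). It held in 6 of 10 other settings and in 6 of 16 fits without 1 rat (adjusted p of 0.0151 to 0.0955). In this list 15 of 18 genes had a negative difference on day 14 (median -0.09), 5 of them at an unadjusted p under 0.05, among them Foxo1 at -0.33. Of all genes, 7.35% were lower at that threshold and 16.8% differed in either direction. The list is named for endothelium, but which cells of the whole liver gave these values was not tested. On day 3 Fli1 and Ets1, both ETS factors, differed by -0.35 and -0.29 (adjusted p of 0.16 and 0.278).

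Of 30 other endothelial surface genes, 1 of which is also a member, 15 were positive on day 1 (median 0.02), 24 negative on day 3 (median -0.10) and 23 negative on day 14 (median -0.13). Podxl, a sialomucin of the vessel lumen, measured 6.90, 6.97, 7.12 and 6.94 with metformin on day 1, against 6.78, 6.55, 6.45 and 6.76 in controls. On day 14 it measured 6.55, 6.75, 6.47 and 6.59 with metformin, against 6.97, 6.79, 6.80 and 6.88 in controls. The groups were apart on both days and in opposite directions. Controls also differed between the days: those of day 14 lay above those of day 1 by 0.22 ± 0.08 without overlap (adjusted p = 0.281). That shift is part of the change between the metformin effects. Neither daily difference passed (0.34 ± 0.08, adjusted p = 0.209, and -0.27 ± 0.08, adjusted p = 0.079), and the change between them did (-0.61 ± 0.12, adjusted p = 0.0125), also in 16 of 16 fits without 1 rat and 9 of 10 other settings. Ramp2, a component of the adrenomedullin receptor, differed by 0.29 on day 1, and Calcrl and Selp by -0.27 and -0.16 on day 3. Aplnr, the apelin receptor, differed by -0.47 ± 0.14 on day 14 (adjusted p = 0.0766). It measured 4.03, 3.88, 4.06 and 3.26 with metformin on that day, against 4.15, 4.39, 4.59 and 3.98 in controls. All metformin values and the first and last controls lay under the level of the filter on low values, so this difference rests on low levels.

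The list of 18 hepatic Wnt and R-spondin genes holds mostly hepatocyte receptors, feedback inhibitors and targets of the signal that Wnt2 and Rspo3 carry. Of these, 1 rose on day 1 and 0 passed on days 3 and 14, against 0.0152%, 0.254% and 3.29% of all genes called. On days 3 and 14, 2 and 6 had an unadjusted p under 0.05 (13.6% and 16.8% of all genes). Axin2, a target that inhibits the pathway, measured 6.80, 7.20, 7.71 and 7.43 with metformin on day 1, against 6.53, 6.45, 6.38 and 6.47 in controls. All metformin rats were above all controls, by 0.83 ± 0.14 (adjusted p = 0.0332), a call kept in 5 of 10 other settings and in 2 of 8 fits without 1 rat (adjusted p of 0.0011 to 0.254). The controls of day 1 were themselves low in Axin2. Controls of day 3 lay above them by 0.30 ± 0.14 without overlap (adjusted p = 0.998), and those of day 14 by 0.11 with overlap. In the mean over the 3 days Axin2 (0.51, adjusted p = 0.00128), Rnf43 (0.61, adjusted p = 0.0183) and Tbx3 (0.84, adjusted p = 0.00249) rose with metformin. That comparison called 3.23% of all genes. Each of these 3 calls held in 24 of 24 fits without 1 rat. In other settings Axin2 and Tbx3 held in 9 of 9 and Rnf43 in 8 of 9 (adjusted p of 0.0107 to 0.0696). On day 3 Tbx3 and Rnf43 differed by 0.89 and 0.64. On day 14 Tbx3 differed by 0.85 and Axin2 by 0.45, while Wnt2 differed by -0.17 and Rspo3 by -0.06. Tcf7l2 differed by -0.37 on that day. In controls Fzd4, a Wnt receptor, fell by day 14 relative to day 1 (-0.73, adjusted p = 0.0449), a call that held in 6 of 10 other settings and in 3 of 8 fits without 1 rat (adjusted p of 0.0345 to 0.191).

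Of 19 BMP and ALK1 genes, 17 were positive on day 1 (median 0.11), 12 negative on day 3 (median -0.08) and 9 negative on day 14 (median 0.02). Hamp, which encodes hepcidin in hepatocytes, fell with metformin on day 14. It measured 13.48, 12.28, 12.83 and 12.24 in metformin rats and 15.49, 16.24, 15.96 and 14.88 in controls, with a difference of -2.94 ± 0.70, or 7.67-fold lower (adjusted p = 0.0236). The call held in 9 of 10 other settings and in 4 of 8 fits without 1 rat (adjusted p of 0.0183 to 0.0697). Metformin rats of days 1 and 3 ranged over 12.75 to 16.04 and 12.82 to 16.42, so low values were also found in single rats of those days. Of the ligands, Bmp6 differed by -0.003, -0.13 and 0.06 on days 1, 3 and 14, and Bmp2 by the values given above. The mean effect on Id2, a BMP target, was 0.72 ± 0.20 (adjusted p = 0.0497), a call lost in 18 of 24 fits without 1 rat (adjusted p of 0.0217 to 0.0965) and kept in 4 of 9 other settings (adjusted p of 0.0104 to 0.159), and Id3 differed by 0.58 on day 1 and -0.37 on day 14. Atoh8 differed by 0.32 on day 1, the signal transducer Smad9 by -0.22 on day 3 and the receptor Acvr1 by 0.39 on day 14 (adjusted p = 0.0617).

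In the 4 remaining lists no gene passed the limma test on any day. The unadjusted p was under 0.05 in 8.22%, 13.6% and 16.8% of all genes on days 1, 3 and 14. The 11 VEGF ligands and coreceptors had medians of 0.06, -0.05 and 0.03 on days 1, 3 and 14, and 2, 1 and 1 of them an unadjusted p under 0.05, with Vegfb at 0.41 and Pgf at -0.26 on day 1 and the semaphorin receptor Plxnd1 at -0.25 on day 3 and -0.27 on day 14. Vegfd differed by 0.20 on day 3 and the coreceptor Nrp1 by -0.19 on day 14. The 6 measured angiopoietin genes, a list that shares Tie1 and Tek with the members, had medians of 0.10, -0.05 and -0.08, and 1, 0 and 0 of them an unadjusted p under 0.05. The 11 endothelial Notch genes had medians of -0.004, -0.02 and 0.01, and 2, 0 and 0 of them an unadjusted p under 0.05, with the ligand Dll1 at 0.42 and Notch1 at 0.23 on day 1 (adjusted p of 0.286 and 0.306). The ligand Jag2 and the target Hes1 differed by -0.12 and 0.31 on day 3, and Rbpj, the DNA-binding partner of Notch, and the target Hey2 by 0.35 and 0.19 on day 14. The 9 measured haemostasis genes had medians of 0.04, -0.006 and -0.09, and 0, 2 and 0 of them an unadjusted p under 0.05, with Procr, the endothelial protein C receptor, at 0.27 on day 1 and 0.35 on day 3, and Thbd, thrombomodulin, at 0.25 on day 14. F8, coagulation factor VIII, differed by 0.09 on day 1 and -0.09 on day 14, and the protease Adamts1 by 0.33 on day 3.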

How the data were processed

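RNA from 24 rat livers (6 groups of 4) was measured on Affymetrix arrays. The values are linear intensities, deposited per probe set after RMA, a background correction, quantile normalization and summary method, per the submitters' processing notes. Which software ran RMA was not given in the sources used here. At its highest, a deposited intensity of 994415 exceeds what a 16-bit scanner records (65535), so a rescaling that no source describes lies in between, and folds hold on the deposited scale. 0 columns of per-sample values were left unused. Arrays have no read depth, and their number limits the precision.

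Log2 of each intensity was taken. For each gene the probe set with 1 symbol and the highest mean was used (30 of 32 members; Dnase1l3, Flt1 and Robo4 had more than 1, and the probe sets of Flt1 differed by over 0.2 in the differences of days 3 and 14). Tested genes exceeded 4.28 (the 30th percentile of the values) in 4 arrays or more. A limma 3.58.1 model (R 4.3.3) with 1 mean per group was fitted to all 24 arrays, with 3.51 prior and 18 residual degrees of freedom. Tests are two-sided, Benjamini-Hochberg adjusted over 19686 genes and called at an adjusted p under 0.05. Errors of differences are standard errors. The labels number biological replicates but tie no rat to a cage or hybridisation batch, so neither was modelled. The steps were tested on simulated data.

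The members and all gene lists were chosen with earlier results of these data known. The named members are those called in any comparison, the 4 with the smallest p in each comparison with control, Stab2, Lyve1, Clec4g, and the highest member of each role. From the other endothelial lists, called genes and otherwise the 2 smallest p per day were named; others are given for their role or as groups apart, chosen after their values were seen. Alternatives were quantile, cyclic loess and median scaling, 2 other filters, means of probe sets, all probe sets, a trended robust prior, fewer arrays, the replicate number as a block, and leaving out each rat. Promoters were read with Python 3.11.15 and pandas 2.3.3, and figures drawn with matplotlib 3.10.9. Markers of lymphocytes, cholangiocytes, neutrophils and erythroid cells (16, 11, 9 and 10 tested) had median differences on day 14 of -0.01, -0.06, 0.07 and 0.20. Of these markers Tfrc, the transferrin receptor, was called on day 14 (1.58, adjusted p = 0.00876), in the mean effect (0.74) and in the effect of day 14 minus day 1 (1.95).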

Additional observations from a re-analysis of the deposited data

Results flagged for a closer look

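Rats far from the other 3 of their group were found in 8 of 180 combinations of member and group, and chance gives about 1 in 20. On day 1 metformin replicate 1 was low in Wnt2 (6.10, the others 6.32 to 6.35), Esam (6.35, the others 6.59 to 6.62) and Clec4g (9.39, the others 9.66 to 9.71), and control replicate 1 was low in Stab1 (7.25, the others 7.42 to 7.46). On day 3 metformin replicate 4 was low in Fcgr2b (12.54, the others 13.05 to 13.15) and metformin replicate 2 high in Plvap (6.37, the others 5.75 to 5.80). Among controls of day 3, replicate 2 was low in Plvap (5.83, the others 6.08 to 6.12) and replicate 1 high in Vwf (6.81, the others 6.51 to 6.56).

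The effect of metformin on day 14 differed from that on day 1 by the test of the difference itself in 4 genes of the members and pathway lists. The same test called 1.66% of all genes. The 4 are Wnt2 (-0.48) of the 30 members, Klf2 (-1.11) and Nr2f2 (-0.83) of a list of 18, and Podxl (-0.61) of a list of 30. The other lists gave no call. Each of the 4 was positive on day 1 and negative on day 14. The calls of Wnt2 and Nr2f2 held in only 5 and 6 of 10 other settings.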

How the results depend on the processing

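The counts of 0 called members for metformin against control on days 1 and 3, for the mean effect, for the differences between days 3 and 1 and between days 14 and 3, and for controls of day 3 over day 1 and day 14 over day 3 stayed at 0 in all alternatives run, including fits without 1 rat. On day 14 fits without 1 rat called 0 to 1 members. For the difference between days 14 and 1 they called 0 to 2, and the count of 1 became 0 with arrays centred on their medians, with no filter, with all probe sets, with only the arrays of the days compared, and with the replicate block. For controls of day 14 over day 1 they called 0 to 1, and the count of 1 became 0 with quantile normalization, cyclic loess, all probe sets and only the arrays of the days compared. With all probe sets and with no filter, more features enter the adjustment, and with fewer arrays the spread rests on fewer rats. For the others the cause was not tested.

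The median difference of the members kept its sign in fits without 1 rat, at 0.06 to 0.13 on day 1, -0.12 to -0.04 on day 3 and -0.32 to -0.08 on day 14, and in other settings at 0.06 to 0.08, -0.10 to -0.06 and -0.21 to -0.18. No scaling moved the median of all genes by 0.1. Stab2 on day 1 reversed to -0.0041 under cyclic loess. Without 1 rat, signs on day 1 reversed for Stab2 (-0.034 to 0.083), Vwf (-0.0043 to 0.091), Bmp2 (-0.22 to 0.075) and Fcgr2b (-0.071 to 0.099), and on day 3 for Stab2 (-0.17 to 0.062), Vwf (-0.12 to 0.040), Lyve1 (-0.083 to 0.11) and Erg (-0.066 to 0.12). Deviations of rats with the same replicate number correlated at -0.16 to 0.19, so the numbers do not pair the rats by this check. With the replicate block the adjusted p was 0.0777 for Wnt2 between days 14 and 1, 0.0275 for Mmrn1 in controls, 0.0851 for Axin2 on day 1 and 0.0647 for Nr2f2.

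The limits are 4 rats per group, whole-liver RNA, and a spread of the endothelial genes on day 14 that was wider than on the other days.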
